A study of Mus musculus with 2 samples.

Results

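The 10 genes described here, Aqp4, Aldh1l1, S100b, Agt, Hepacam, Mlc1, Sparcl1, Sparc, Thbs1 and Gpc4, are used as markers and products of maturing astrocytes. They were picked by name from what is known of astrocytes, with earlier results of these data known but without a threshold on any value, and all 10 of 10 matched a row among the 43346 gene rows of the tables. RNA above 200 bases, 10 ng per library, came from 2 mouse pups of strain B6NCrl on postnatal day 0, with 1 neural tube (the structure that forms brain and spinal cord) for each total RNA library. Both pups came from 1 pregnancy and are listed under 1 donor entry, no treatment or genetic change is given in the labels, and sex was not collected. The 2 libraries form 1 group with n = 2, so there is no contrast between conditions and no older or younger age to compare with. Any difference between the pups rests on 1 library each, and no p-value was computed.

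Astrocytes are born from radial glia late in development and mature over the weeks around and after birth. As they mature they wrap blood vessels with endfeet that are rich in the water channel AQP4, couple through gap junctions, buffer potassium and take up glutamate. They also secrete proteins that promote or restrain the formation of synapses, among them SPARCL1 (hevin), SPARC, thrombospondins and glypicans. Several of these genes are not confined to astrocytes: SPARC is also made by vessels, fibroblasts and bone, and S100B by the oligodendrocyte lineage and Schwann cells. The RNA came from whole tissue, so fewer cells of a type and less RNA per cell cannot be told apart.

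Sequences of the Sparc transcripts are shown because the level of Sparc depends on how its reads were divided among them. Sparc lies on chromosome 11, minus strand, 55394500 to 55423183 in GRCm38 (the same build as mm10). Its 3 protein-coding transcripts in the tables, Sparc-201, Sparc-202 and Sparc-206, are 2300, 2115 and 640 bases long, and these lengths, by which counts are divided, differ mostly outside the sequence shown. The third exon, which ends at base 55407220, differs among the 3 by 3 or 6 bases at its 5′ side. Their whole coding sequences were not compared, and the 640 bases of Sparc-206 make it a much shorter transcript. Capitals mark the bases that the shortest form lacks, and sequences are from the GENCODE M21 transcripts.
Sparc-201: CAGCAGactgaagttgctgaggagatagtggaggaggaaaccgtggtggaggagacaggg
Sparc-202: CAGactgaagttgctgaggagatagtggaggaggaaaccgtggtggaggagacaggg
Sparc-206: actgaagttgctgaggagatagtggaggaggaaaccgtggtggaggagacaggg

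The fourth transcript that carried many reads, Sparc-205, is annotated as a retained intron, a class of transcript that keeps intron sequence and is given no coding region. It is 741 bases long, and 647 of these (87.3%) are also exon in the 2300-base Sparc-201. The other 94 bases are intron in Sparc-201, at 55402072 to 55402165, and stand in capitals in its first exon.
Sparc-205: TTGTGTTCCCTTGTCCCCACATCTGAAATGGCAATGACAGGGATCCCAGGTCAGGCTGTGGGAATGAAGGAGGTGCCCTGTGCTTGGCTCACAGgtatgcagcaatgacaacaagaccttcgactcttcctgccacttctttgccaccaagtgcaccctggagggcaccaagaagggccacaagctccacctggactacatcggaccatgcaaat

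All 10 of the genes were detected, with a TPM (a level scaled by transcript length and library size) of at least 1 in both pups. The same held for 35.5% of all gene rows and 63.8% of protein-coding genes. The median of the 10 mean levels was 71.3 TPM, beside 17.7 TPM over the 13698 protein-coding genes detected in both pups. The levels fell into 3 tiers: Sparc and Sparcl1 at 864.33 to 1140.77 TPM, a middle tier of 6 genes at 29.59 to 109.71 TPM, and Thbs1 and Gpc4 at 7.98 to 12.17 TPM. Each gene rested on 454 to 69245 expected counts, from libraries of 26916916 (pup 1) and 40003518 (pup 2) expected counts.

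**Figure D1:**
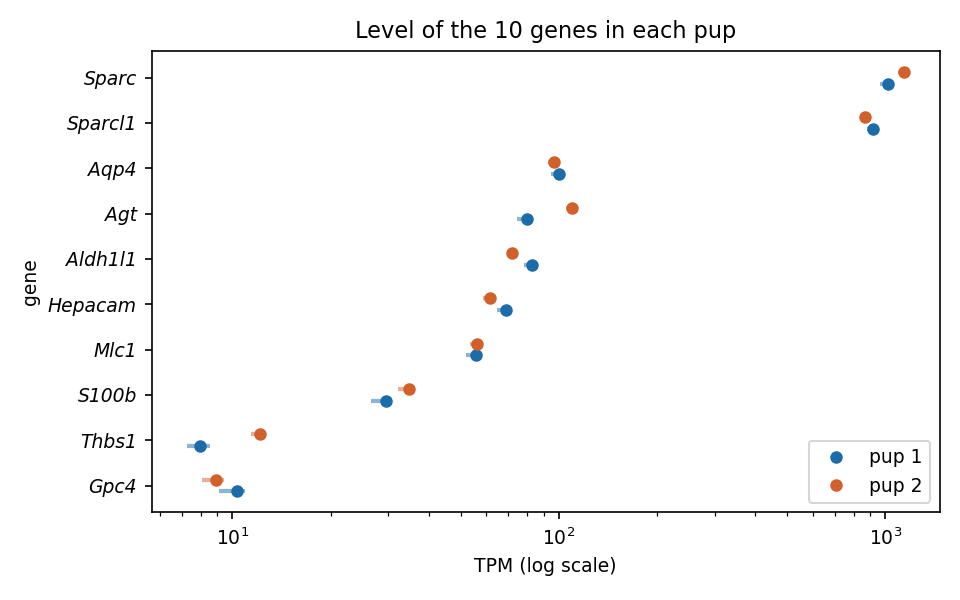
Levels of the 10 genes (rows) as TPM on a log axis, with 1 point per pup and a bar for the deposited interval of each library. Sparc and Sparcl1 stand apart at the top, 9.07 times or more above the next gene by mean, and Thbs1 and Gpc4 lie lowest at 10.1 and 9.61 TPM.

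In order of mean level, 6 of the 9 neighbouring pairs had TPM ranges over the pups that did not overlap, and 3 pairs could not be ordered. Among the 6, the order of Sparc over Sparcl1 held in TPM as deposited but turned in counts, where Sparcl1 was 2.09 times as high by mean ratio, and in 2 other assignments of Sparc reads given with these genes. Aqp4 and Agt overlapped, as did Agt and Aldh1l1, and Thbs1 and Gpc4. In pup 1 Agt stood below Aqp4 and Aldh1l1 and Gpc4 above Thbs1, while in pup 2 Agt stood above both and Thbs1 above Gpc4. The places of Sparc, Sparcl1, Hepacam, Mlc1 and S100b were the same in both pups.

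Among the genes of the endfoot and of its adhesion complex, Aqp4, the main water channel of the brain and spinal cord, was at 100.19 TPM in pup 1 and 96.39 in pup 2. The pups differed little, with a mean of 98.3 ± 2.69 TPM (SD, n = 2), and 87.6% of detected protein-coding genes were lower. Mlc1, a membrane protein of astrocyte junctions that is mutated in megalencephalic leukoencephalopathy, was at 55.62 and 56.24 TPM, a mean of 55.9 ± 0.438. Hepacam, which encodes GlialCAM, the adhesion partner of MLC1, was at 69.14 and 61.67 TPM, a mean of 65.4 ± 5.28. Hepacam was above Mlc1 in both pups, and the ratio of Mlc1 to Hepacam was 0.804 in pup 1 and 0.912 in pup 2. Hepacam lies on chromosome 9 (plus strand, 37367351 to 37386575) and Mlc1 on chromosome 15 (minus strand, 88955884 to 88979007).

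The deposited tables cannot separate the forms of Aqp4. AQP4 is made in a longer form, M1, and a shorter form, M23, that starts at a later methionine and assembles into arrays in endfoot membranes. The tables hold 1 Aqp4 transcript, of 5082 bases, so its isoform percentage was 100% in both pups by construction and carries no measurement. The later GENCODE M21 annotation lists 11 Aqp4 transcripts, of which 1, the transcript in the tables, has the longest coding sequence and 7 share a shorter one. The longer coding sequence starts with 66 bases that the shorter one lacks.

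Of the 15 partner genes of the endfoot and of gap junctions, 14 were detected in both pups, with a list median of 27.4 TPM. The highest were Vim, an intermediate filament of radial glia and young astrocytes, at 320.54 and 328.6 TPM, and, by mean, Atp1b2, a sodium pump subunit of astrocytes, at 187.7 and 182.53. The leading transcript of Vim was a 535-base retained intron. Gja1, connexin 43, stood at 153.26 and 189.94 TPM, above Atp1b2 in pup 2. Gjb6, connexin 30, a connexin of later astrocytes, was at 19.26 and 31.15 TPM, 1.68-fold higher in pup 2, and was the only gene of the list past 1.5-fold. Kcnj10, the potassium channel Kir4.1 that sits with AQP4 in endfeet, was far lower at 7.11 and 6.18 TPM. Aqp4 exceeded it 14.1-fold in pup 1 and 15.6-fold in pup 2. The dystroglycan gene Dag1 was at 62.16 and 60.03 TPM, and the calcium channel Trpv4 was lowest at 0.94 and 1.11 TPM, below the detection level in pup 1.

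Aqp4 was the highest of the aquaporins listed. Of the other 9 family members listed, 3 were detected in both pups. Aqp11, an intracellular aquaporin, followed at 26.4 and 32.62 TPM, so that Aqp4 was 3.8 times as high in pup 1 and 2.95 times in pup 2. Aqp1, a water channel of choroid plexus, vessels and some sensory neurons, was at 1.79 and 3.99 TPM, 2.31-fold higher in pup 2, and Aqp9 was at 2.51 and 2.86. Aqp5, at 1.2 and 0.86 TPM, fell short of the detection level in pup 2, and Aqp12 was at 0 counts in both.

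The 3 remaining middle-tier genes encode an enzyme, a hormone precursor and a calcium sensor. Aldh1l1, the folate enzyme whose promoter and antibody are widely used to mark astrocytes, was at 82.59 TPM in pup 1 and 71.77 in pup 2, a mean of 77.2 ± 7.65 (SD, n = 2). The deposited intervals of the 2 values lay apart, at 78.4 to 84.9 and 69.2 to 75.0 TPM. Of its 5 transcripts, a coding one of 3043 bases held 89.98% of the gene's TPM in pup 1 and 89.36% in pup 2, and a coding one of 4175 bases held 10.02% and 10.27%. Aldh1l1 (chromosome 6, plus strand, 90486427 to 90600203) shares 499 exon bases with an antisense gene and 105 with a long non-coding RNA on its own strand, so the gene of origin is uncertain for reads from those bases (whether counting used strand is not stated). Among the other folate enzymes all 10 of 10 were detected, none was past 1.5-fold, and their median was 9.4 TPM. The highest were the mitochondrial Shmt2 at 29.98 and 25.79 TPM and the cytosolic Mthfd1 at 23.89 and 22.65, and the lowest was Mtr, methionine synthase, at 1.93 and 1.75. The mitochondrial paralog Aldh1l2 was at 8.25 and 6.22 TPM. Aldh1l1 was the highest of these 11 enzymes in both pups.

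Agt, angiotensinogen, the precursor of the angiotensins and in the nervous system mainly an astrocyte product, was at 79.97 TPM in pup 1 and 109.71 in pup 2. Pup 2 was 1.44-fold higher (a log2 ratio of 0.52), and the mean was 94.8 ± 21 TPM. It rested on 2472 and 5224 counts, and its intervals lay apart, at 74.4 to 80.5 and 105 to 110 TPM. Agt was the second most different of the 10 genes between the pups. The 150 bases before its start (RefSeq, chr8:124569707-124569856, minus strand, GRCm38.p6) are shown because of the 7 genes with a promoter entry Agt differed most between the pups.
Agt: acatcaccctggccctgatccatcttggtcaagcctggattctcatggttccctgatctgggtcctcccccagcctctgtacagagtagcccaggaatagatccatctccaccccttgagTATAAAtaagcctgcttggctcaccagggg

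Capitals mark the motif TATAAA, the core of a TATA box. Searched on both strands in windows of 250 bases before to 50 after the start, it was found in Agt and in none of the other 6 promoters (Aldh1l1, S100b, Hepacam, Mlc1, Sparc and Gpc4), and in 13.6% of all 32851 promoters. The short site TTGGCA of nuclear factor I, a factor family of astrocyte development, was found in Hepacam and S100b and in 14.1% of all promoters. A match describes letters only.

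The rest of the renin-angiotensin system had a median of 2.2 TPM, with 6 of 10 genes detected, 2 at least 1.5-fold higher in pup 2 (Agtr2 and Agtr1b) and 0 lower. The highest was Atp6ap2, the prorenin receptor and a proton pump accessory subunit, at 206.55 and 212.21 TPM. Agtr2, the type 2 angiotensin receptor of fetal tissue, was at 6.77 and 9.75 TPM, 1.51-fold higher in pup 2. The type 1 receptor gene Agtr1a was at 1.82 and 1.92 TPM. Agtr1b, the other type 1 receptor and the lowest of the list by mean and in pup 1, was at 0.11 and 0.59 TPM, resting on 4 and 32 counts. The converting enzyme Ace was at 6.59 and 6.2 TPM, while renin, Ren1, stood at 0.89 and 0.63 on 23 and 25 counts. Agt exceeded Agtr2 11.8-fold in pup 1 and 11.3-fold in pup 2.

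S100b, a secreted calcium-binding protein of astrocytes and other glia, was at 29.59 TPM in pup 1 and 34.7 in pup 2, a mean of 32.1 ± 3.61 (707 and 1277 counts). Its log2 ratio was 0.30, and 66% of detected protein-coding genes were lower. It lies on chromosome 10, plus strand, 76253853 to 76261159. It shares no exon base with Dip2a, which overlaps its span on the opposite strand. S100b was not the leading S100 gene: S100a10, a partner of annexin A2, was at 171.83 and 228.89 TPM and S100a11 at 150.86 and 221.2. The level of S100b was below 6 of the 7 other S100 genes listed in both pups, and among these only S100a4 was lower, at 5.52 and 8.39. Further genes of the S100 family were not examined. Of the 8 genes of the S100 list, 3 were at least 1.5-fold higher in pup 2, S100a11 (1.54-fold), S100a6 (1.56-fold, at 68.26 and 101.37 TPM) and S100a4 (1.57-fold, on 38 and 89 counts). The S100 receptor gene Ager, the lowest, was the 1 gene as much lower, at 2.05 and 1.22 TPM on 49 and 47 counts.

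The secreted and surface proteins that act on synapses spanned the whole range of levels. Sparc was at 1020.11 TPM in pup 1 and 1140.77 in pup 2, a mean of 1080.4 ± 85.3 (SD, n = 2), and Sparcl1 was at 919.51 and 864.33, a mean of 892 ± 39. Sparcl1 promotes excitatory synapses, and Sparc, its family relative, is known to antagonise it. By TPM Sparc was above Sparcl1 in both pups, with a ratio of Sparcl1 to Sparc of 0.901 and 0.758. More than 99% of detected protein-coding genes were below either gene (99.5% for Sparc and 99.2% for Sparcl1). The order turned with the unit: Sparcl1 had 47823 and 69245 expected counts against 20735 and 36961 for Sparc, 2.31 and 1.87 times as many.

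The order also depended on the transcripts to which Sparc reads were assigned. The retained-intron transcript Sparc-205, shown above, held 48.7% of Sparc TPM in pup 1 and 47.9% in pup 2, but 26.5% and 25.2% of its counts. Sparc-201 held 20.7% and 23.3% of TPM and 38.7% and 42.0% of counts, Sparc-202 16.5% of TPM in both, and the 640-base Sparc-206 13.8% and 12.2%. The mean length used for Sparc, weighted by transcript level, was 1277.33 and 1318.34 bases, against 3114 for Sparcl1. In GENCODE M21 that Sparcl1 transcript is 2759 bases long. For the same counts a shorter length gives a higher TPM, and the order at 2759 bases was not tested. With the transcripts annotated as retained introns left out, Sparc came to 521 and 593 TPM, and Sparcl1 was 1.76 and 1.46 times as high. With all Sparc counts placed on the 2300 bases of Sparc-201, Sparc came to 546 and 632 TPM, and Sparcl1 was 1.68 and 1.37 times as high. These 2 alternatives were chosen after the transcript values were seen. How many reads came from RNA that kept the intron was not tested, since most bases of Sparc-205 are shared with the coding forms.

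**Figure D2:**
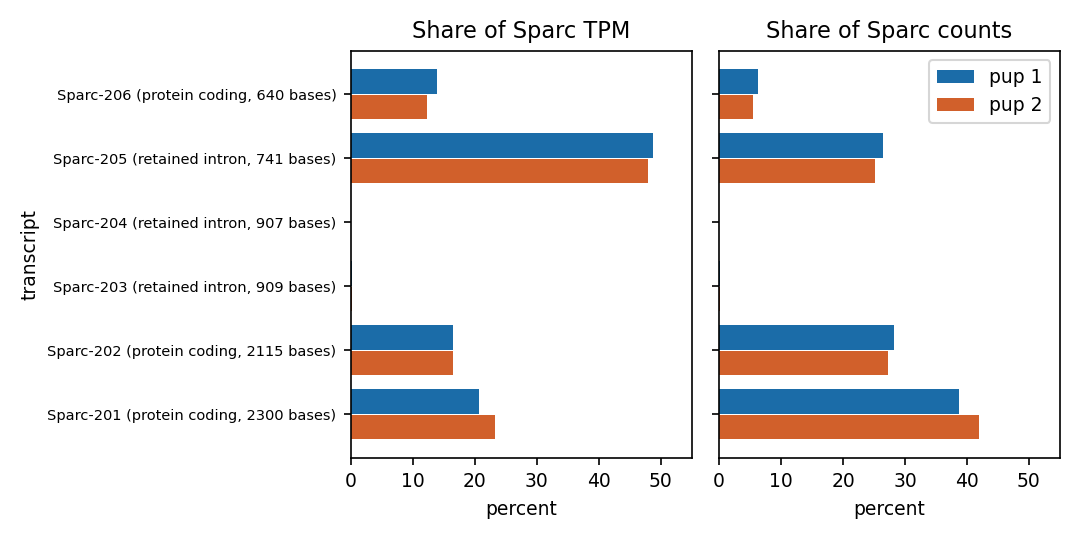
Share of each Sparc transcript (rows) in the gene's TPM (left) and in its expected counts (right), in percent, with 1 bar per pup. The 741-base Sparc-205 leads by TPM at 48.7% and 47.9%, and the 2300-base Sparc-201 leads by counts at 38.7% and 42.0%.

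Sparc and Sparcl1 were the highest of their family by TPM. All 6 other members were detected, from Spock3, a testican proteoglycan, at 125.41 and 120.97 TPM to Smoc2, the lowest by mean, at 9.01 and 14.28. Spock2 was at 105.54 and 81.37, Fstl1 at 83.03 and 104.59 and Spock1 at 93.92 and 84.68. Smoc1 was at 13.3 and 12.78, below Smoc2 in pup 2. Smoc2 alone was past 1.5-fold, at 1.66-fold higher in pup 2. Both Sparc and Sparcl1 stayed above every one of these genes with Sparc placed on the length of Sparc-201.

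Thbs1, thrombospondin 1, a matrix protein that promotes silent excitatory synapses, was at 7.98 TPM in pup 1 and 12.17 in pup 2, on 791 and 1838 counts. Pup 2 was 1.58-fold higher (a log2 ratio of 0.66), the largest difference among the 10 genes, and the intervals lay apart at 7.28 to 8.57 and 11.4 to 12.7 TPM. The mean of 10.1 ± 2.96 TPM was above 34.9% of detected protein-coding genes. Thbs1 (chromosome 2, plus strand, 118111876 to 118127133) shares 208 exon bases with a non-coding gene on the opposite strand, where reads are likewise uncertain.

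Thbs2, the other thrombospondin linked to astrocyte synapse formation, was at 6.31 and 6.64 TPM, so that the ratio of Thbs1 to Thbs2 was 1.26 in pup 1 and 1.83 in pup 2. Thbs3 was the highest family member at 41.99 and 35.96 TPM, but its leading transcript was a 455-base retained intron with 52.67% and 59.96% of its TPM. Thbs4, at 0.93 and 0.94, was lowest by mean and in pup 1, and Comp, at 1.1 and 0.83, was lowest in pup 2 and there below the detection level. Of the 10 further thrombospondins and receptors, 8 were detected and none was past 1.5-fold. The highest receptor was Cd47, an integrin-associated protein, at 125.41 and 131.96 TPM, followed by the endocytic receptor Lrp1 at 89.18 and 69.09, whose leading transcript was also annotated as a retained intron. Cacna2d1, the calcium channel subunit through which thrombospondins act on synapses, was at 28.48 and 31.11 TPM, above Thbs1 in both pups.

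Gpc4, glypican 4, a heparan sulfate proteoglycan that recruits AMPA receptors, was at 10.31 TPM in pup 1 and 8.91 in pup 2, a mean of 9.61 ± 0.99 on 454 and 604 counts. Its intervals overlapped, at 9.1 to 10.9 and 8.06 to 9.44 TPM. It lies on chromosome X, minus strand, 52053021 to 52165252. Gpc4 was the lowest of the 6 glypican genes in both pups. Gpc6, which shares its synaptic role, was at 13.82 and 13.1 TPM, and the ratio of Gpc4 to Gpc6 was 0.746 and 0.68. Gpc3 was highest at 73.95 and 92.02 TPM, Gpc1 was at 52.15 and 44.22, Gpc5 at 20.74 and 21.2 and Gpc2 at 20.4 and 16.47. All 10 glypicans and partners listed beside Gpc4 were detected and none was past 1.5-fold. The receptor phosphatase gene Ptprs was highest at 120.74 and 99.13 TPM, Ptprd was at 52.02 and 44.81, the AMPA receptor clustering factor Nptx1 at 20.44 and 16.51, and Notum, which releases glypicans from the membrane, lowest at 12.57 and 11.3.

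**Figure D3:**
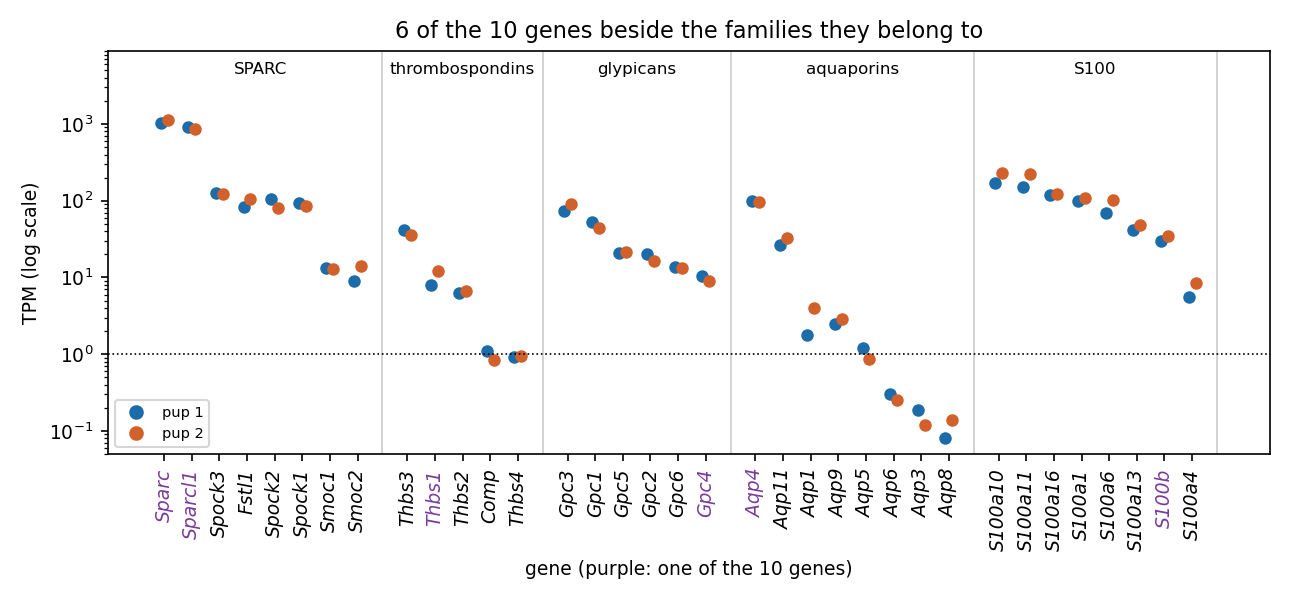
TPM on a log axis of 6 of the 10 genes (purple names) and of the other listed members of their families, with 1 point per pup, ordered by mean within a family, and a dotted line at a TPM of 1. Aqp4 leads the listed aquaporins and Sparc and Sparcl1 the SPARC family, while Gpc4 is the lowest glypican. Aqp7 and Aqp12, at or near 0, are not drawn.

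Among other astrocyte genes that act on synapses, the 7 listed had a median of 3.69 TPM, 6 were detected in both pups, and none was past 1.5-fold. Tgfb2 was highest at 37.88 and 29.28 TPM, above Thbs1 and Gpc4 in both pups, and Wnt5a next at 12.69 and 10.75. The leading transcript of Tgfb2 was an 898-base retained intron with 40.67% and 38.66% of its TPM. Chrdl1, an astrocyte factor that drives the switch of AMPA receptor subunits in later development, was at 1.95 and 1.73, and the phagocytic receptors Megf10 and Mertk were at 1.44 and 1.49 and at 3.86 and 3.53. Tgfb1 was lowest at 0.87 and 0.88 TPM.

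The 10 genes were set beside early and late astrocyte genes. The 12 radial glia and early astrocyte genes were all detected, with a median of 35.5 TPM, led by Fabp7, a fatty acid binding protein of radial glia, at 2259.1 and 2128.51, and Id3 at 223.72 and 254.05, with the intermediate filament Nes lowest at 7.78 and 8.3. All 14 late astrocyte genes were detected too, with a median of 47.9 TPM. The highest were Aldoc at 944.49 and 915.44 TPM and Ndrg2 at 547.09 and 511.7, and Kcnj10 was lowest. Past 1.5-fold between the pups were 0 of the early and 1 of the late genes, Gjb6. Gfap, the intermediate filament of white matter and reactive astrocytes, was at 200.58 and 235.94 TPM, above Aqp4 and Aldh1l1 in both pups.

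Between the pups, 1 of the 10 genes, Thbs1, was at least 1.5-fold higher in pup 2 and 0 were at least 1.5-fold lower. Of all 18105 genes tested, 4.69% were that much higher and 3.21% that much lower, 7.9% in all, so that 1 of 10 is near the background. At a log2 ratio of at least 0.32 in size, 2 of the 10 (Thbs1 and Agt) were higher and 0 lower, beside 10.6% and 8.9% of all genes (19.5% in all). At 2-fold, 0 of the 10 were higher or lower, beside 1.59% and 0.806% (2.39% in all). The median log2 ratio of the 10 genes was 0.05, and that of all genes tested 0.00. The ratios used TMM scaling, which sets the bulk of genes to no change. Scaled to the spike-in RNAs instead, every ratio shifted by -0.29, on 335 and 603 spike-in counts, so that Thbs1 came to 0.37 and Agt to 0.23. On that scale Aqp4 went from 0.01 to -0.28, Mlc1 from 0.08 to -0.21, Sparc from 0.28 to -0.01 and S100b from 0.30 to 0.00. Sparcl1 went from -0.02 to -0.31, Hepacam from -0.10 to -0.39, and Aldh1l1 and Gpc4 both from -0.14 to -0.43. At 0.32 in size, Thbs1 was then higher, Hepacam, Aldh1l1 and Gpc4 were lower, and Agt fell short. The share of all genes past 0.32 on that scale is not given here.

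**Figure D4:**
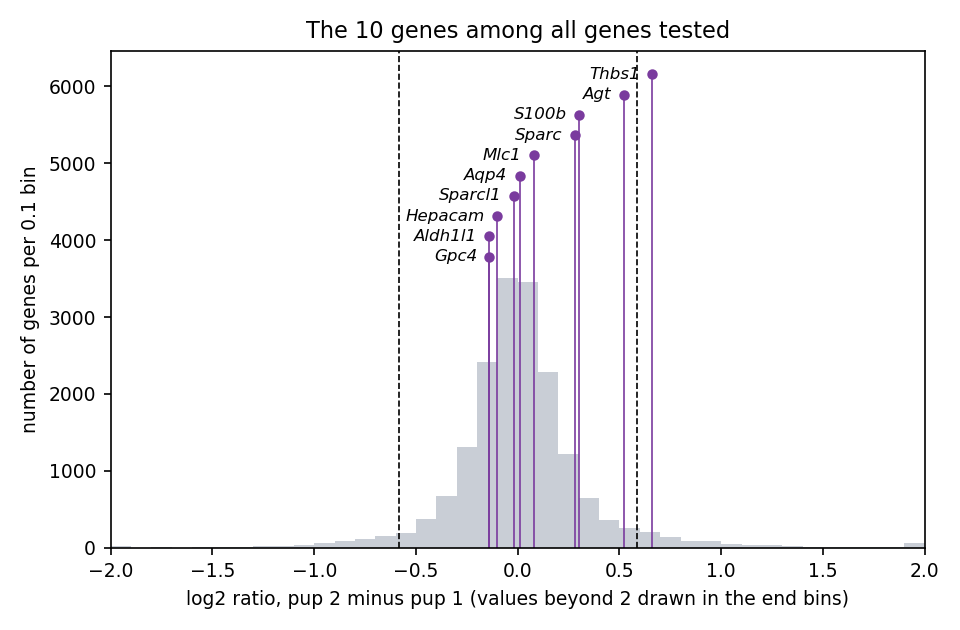
Number of genes (vertical axis) by log2 ratio of pup 2 to pup 1 in bins of 0.1, with the 10 genes marked by purple lines and dashed lines at 1.5-fold. Thbs1 at 0.66 lies outside the dashed lines, Agt at 0.52 lies just inside, and Sparcl1, Aqp4 and Mlc1 lie within 0.1 of 0.

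The deposited intervals of TPM lay apart for 7 of the 10 genes, 4 higher in pup 2 (Sparc, Agt, S100b and Thbs1) and 3 lower (Sparcl1, Aldh1l1 and Hepacam). Over all genes tested they lay apart for 18.6% (6.26% higher and 12.4% lower), and for 27.9% of those with a mean count of at least 400, a bound chosen because all 10 genes pass it. The intervals hold no spread between animals and narrow with depth. The 10 genes ran from 454 to 69245 expected counts, so the bound sets a floor and does not match their depth. They are also on the TPM scale, where the median log2 ratio of all genes was -0.06, so Sparcl1 counted as lower there at a TMM-scaled ratio of -0.02. The intervals belong to a second estimate in the tables, the posterior mean, and for Sparc, Sparcl1 and Aqp4 in both pups, and Hepacam in pup 1, the deposited TPM lay outside its own interval.

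All 8 neuron markers were detected, at a list median of 252 TPM. Markers of some other cell types differed between the libraries. Of the 10 meningeal fibroblast markers, 10 were above 0 and 3 past 1.5-fold in pup 2, with a median log2 ratio of 0.47, a summed level of 1670.9 TPM in pup 1 and 3099.6 in pup 2, and none at 0 counts. Most of the difference between these sums lay in 1 gene, Ptgds, prostaglandin D synthase, at 922.16 and 2190.43 TPM. The other 9 markers summed to 749 and 909 TPM, a ratio of 1.21. Of the 10 oligodendrocyte lineage markers, 9 were above 0 and 4 past 1.5-fold, among them Mbp, with summed levels of 605 and 924 TPM and none at 0. Schwann cell markers had a median of 0.15 with 5 of 7 above 0 and sums of 231 and 230 TPM. The endothelial list, at a median of -0.10 with 3 of 8 above 0, had summed levels of 245 and 225 TPM. The pericyte list had a median of -0.28 with 2 of 8 above 0, but its summed level was 162 TPM in pup 1 and 178 in pup 2. Most of this sum lay in 1 gene, Vtn, at 111.94 and 139.93 TPM. The only other pericyte marker above 0 was Myh11, at 0.4 and 0.44 TPM. Of the platelet list, a rich source of thrombospondin 1, 2 of 5 tested markers were above 0, with Pf4 at 59.99 and 84.62 TPM but Ppbp at 0.59 and 0.42. Microglia markers (6 of 8 above 0, median 0.06) had summed levels of 285 and 300 TPM. Neuron markers (1 of 8 above 0) had a median of -0.09, close to that of the endothelial list, and summed levels of 4250.4 and 3828.2 TPM. The part of any of these cell types in the values of Thbs1, Agt, Sparc and S100b was not tested. Of the 8 bone and cartilage markers, another source of Sparc, 4 were detected in both pups, with a list median of 1.45 TPM. The highest was the bone gene Ibsp, at 7.92 and 6.27 TPM on 269 and 328 counts. Of this list 2 of 8 were above 0 and 1, Col2a1, was at least 1.5-fold lower. The part of bone in the level of Sparc was not tested either. Of 7 ependymal and choroid plexus markers 5 were detected. Ttr was at least 1.5-fold lower in pup 2, but at 0.98 and 0.57 TPM, below the detection level in both pups, on 19 and 17 counts. Otx2, a choroid plexus and forebrain marker, was at 0 counts in both pups.

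**Figure D5:**
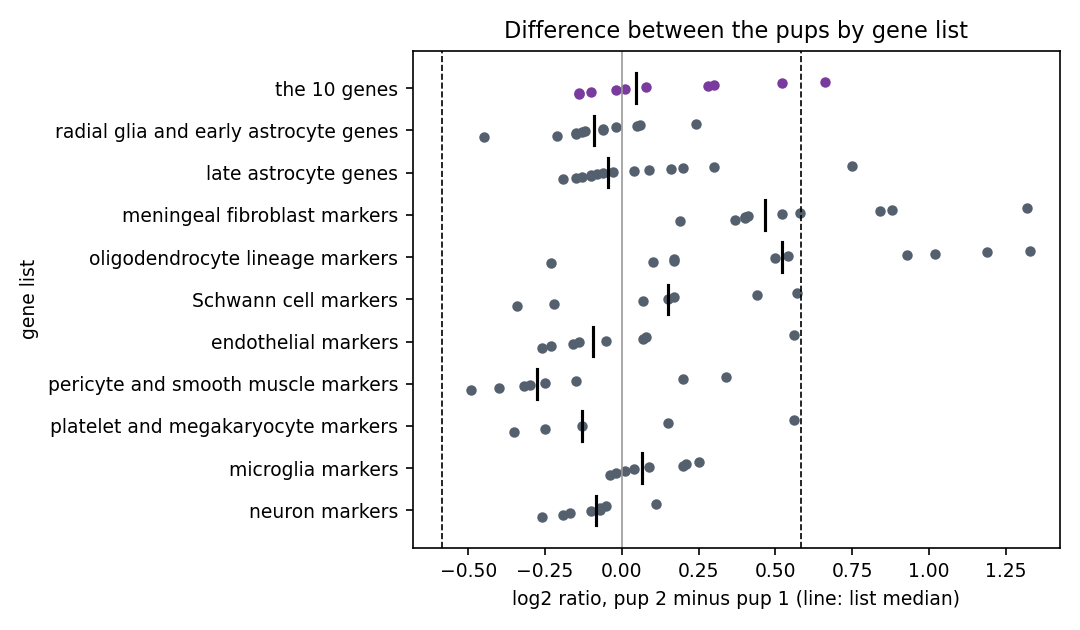
Log2 ratio of pup 2 to pup 1 (horizontal axis) for each gene (points) of the 10 genes and of 10 marker lists (rows), with list medians as black lines and dashed lines at 1.5-fold. The meningeal and oligodendrocyte lists lie to the right with medians of 0.47 and 0.52, and the early and late astrocyte lists lie near 0 at -0.09 and -0.04.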

How the data were processed

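Total RNA-seq libraries of 2 neural tubes, 1 per pup, were analysed as 1 group. Per the file headers, the deposited gene and transcript tables hold expected counts (estimated reads that need not be whole), TPM (scaled by length and to a fixed sum over all rows) and, per transcript, the percent of its gene's TPM, in the column names of RSEM. The deposited notes name mm10 and GENCODE M4. Aligner, versions and use of strand: not given in the sources used here. The authors' estimation split reads that fit several transcripts.

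Gene IDs without version were matched to GENCODE M21 (GRCm38), and 42462 of 43346 gene rows had a symbol. Of 21 transcripts of the 10 genes, 17 had the same length in M21. The Sparcl1 transcript differed most, at 3114 bases in the tables and 2759 in M21. Rows of 26248 tRNAs and 96 spike-ins were left out. Counts were rounded, and log2 ratios of CPM (prior count 2) used TMM from edgeR 4.0.16 in R 4.3.3 over the 18105 genes averaging at least 10 counts. DESeq2 1.42.0 gave alternative size factors. The ratio step was tested on simulated data. Other steps used Python 3.11.15 and pandas 2.3.3.

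Per list, the text names the 2 highest genes and the lowest, and those past 1.5-fold at a mean count of at least 100. It also names those at a TPM of at least 1 in 1 pup only, and others of short lists. For the lists of cell type markers only some genes are given, and these are not always the highest. A few more genes were added with their values in view. A few genes that the rule takes in are left out of the text. The 10 genes and all lists were chosen with earlier results of these data known. Counting error and the depth of 26916916 and 40003518 counts limit low genes most.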

Additional observations from a re-analysis of the deposited data

How the results depend on the processing

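All 10 genes stayed detected at a TPM of at least 0.5 or 5 and with the posterior mean TPM. Their median level was 88.8 TPM when rescaled to nuclear protein-coding genes, and 66.7 to 74.6 TPM with either pup left out. The rescaling raises all nuclear protein-coding genes of a library alike, so 88.8 TPM is not to be set beside the unscaled 17.7 TPM. The count past 1.5-fold was 1, and became 0 with spike-in totals and 0 at 2-fold, but 2 at a log2 ratio of at least 0.32 in size. It stayed 1 with library totals, DESeq2 size factors, a prior count of 0.5, no filter on counts or a mean count of at least 100. The median log2 ratio was -0.24 with spike-in totals. The ratio of Sparcl1 to Sparc, 0.83 in TPM, was 2.09 in counts not divided by length, 1.61 without retained-intron transcripts of Sparc and 1.52 with all its counts on its longest transcript. It was 0.758 to 0.901 with either pup left out. The Aqp4 transcript percentage was 100 throughout. No paired analysis was possible because the 2 libraries form 1 group. No sample could be tested as an outlier with 2 libraries.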
